A study of Mus musculus with 200 samples.

Results

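The collagens and laminins form the protein meshwork of basement membranes and connective tissue, and 55 genes of these families were measured in the mouse brain after a closed head injury. The members were chosen by name: every listed gene whose symbol is Col, a number, a and a number, or Lama, Lamb or Lamc and a number, with at least 10 estimated counts in at least 20 of the 200 mice. Of 56941 listed genes, 55 had such a name and all 55 passed that minimum, 44 of them collagens and 11 laminins. The question put to them was which collagen and laminin chains differ between injured and sham-operated brains, at which time and in which strain.

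RNA was sequenced from one brain hemisphere of each of 200 separate mice, 67 sham-operated and the others with closed head injury (CHI). CHI was a single impact to the intact skull after anaesthesia and a scalp incision, and sham mice had everything except the impact. Tissue was taken 9, 24 or 72 h later from males and females aged 3.3 to 7.67 months. Of the 4 strain labels, C57BL/6J is the wild-type inbred strain, and the labels IL-1R1 gKO, then IL-1R1 nRestore and also IL-1R1 eRestore are names that concern the interleukin-1 receptor Il1r1 and that the labels do not spell out further. The CHI and sham groups at 9, 24 and 72 h held 15 and 6, 14 and 6, and 14 and 6 C57BL/6J mice. Those labelled IL-1R1 gKO held 13 and 6, 12 and 6, and 12 and 6 mice. Those labelled IL-1R1 eRestore held 12 and 6, 9 and 5, and 12 and 6. Those labelled IL-1R1 nRestore held 6 and 4, 8 and 5, and 6 and 5.

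Estimated counts per library summed to between 14857985 and 57355676, with a median of 20258936. The neuronal gene Snap25, the astrocyte gene Gfap and the myelin gene Mbp were at least at 2440, 57.1 and 1390 TPM (a measure of transcript abundance scaled to the same total in each library) in every library. Il1r1 was not lower in the mice labelled IL-1R1 gKO: its median was 3.94 TPM in them and 2.00 TPM in C57BL/6J mice, so total Il1r1 RNA does not check that label. The female transcript Xist and the male transcript Ddx3y went against the sex label in 2 of 200 libraries, 1 IL-1R1 eRestore sham mouse at 24 h and 1 IL-1R1 nRestore CHI mouse at 72 h. Ttr, a transcript of the choroid plexus, ranged from 2.36 to 5930 TPM and exceeded 100 TPM in 33 of 200 mice. The mice came from 8 experiments, 3 of them at 9 h, and no experiment held both 9 h and later mice. In whole tissue, fewer cells of a type and less RNA per cell cannot be told apart.

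Collagens are trimers of α chains wound into a triple helix. Fibrillar collagens such as types I, III and V bundle into fibres, whereas type IV collagen builds the sheet-like network of basement membranes, and laminins, each an α, a β and a γ chain, form the second network of that sheet. In the brain a basement membrane wraps every blood vessel, made by endothelial cells, pericytes and astrocytes, with the α1 and α2 chains of type IV collagen and the laminin γ1 chain as its common parts. Fibrillar collagen is largely made by fibroblasts of the meninges and of the sheath around larger vessels.

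The highest mean level over the 200 mice was that of Col25a1, a transmembrane collagen of neurons, at 18.8 TPM. TPM is corrected for transcript length, so that levels of different genes can be set side by side. Among laminins Lamb2 led with 12.0 TPM, Lamc1 was at 8.82 TPM, and the highest α chain was Lama2 with 4.37 TPM. Type IV collagen was represented mainly by Col4a2 and Col4a1, at 8.71 and 8.68 TPM, while the lowest member, Col4a4, was at 0.122 TPM. Col6a1 led the beaded filament collagens with 10.3 TPM, Col9a2 the fibril-associated collagens with 5.88 TPM and Col11a2 the fibrillar collagens with 5.11 TPM. Col26a1, Col8a1 and Col15a1 led the smaller classes with 2.62, 1.95 and 1.49 TPM. All classes were present, most chains at a few TPM or less.

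Stretches before the RefSeq start sites of 5 collagen genes on which the comparisons turn are shown first. They are RefSeq sequences of the build GRCm38.p6, read 5′ to 3′ on the strand of the gene, and the capitals mark short motifs found by their letters on either strand: the CCAAT box (CCAAT), the GC box (GGGCGG) and the TATA box (TATAAA). Col4a1 and Col4a2 are transcribed away from each other and share a start region, so that their stretches, given around the CCAAT box only, lie close together.
Col4a1, chr8:11312954-11312983, minus strand, with CCAAT on the opposite strand: tgcttgcccgggATTGGcgagccaaggggc
Col4a2, chr8:11312761-11312790, plus strand, with CCAAT 32 bases before the start: ccgaggagctccCCAATttgttggcgctgc
Col1a2, chr6:4505497-4505526, plus strand, with CCAAT: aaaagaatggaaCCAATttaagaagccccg
Col5a3, chr9:20815123-20815317, minus strand, with CCAAT 122 and the GC box, on the opposite strand, 63 bases before the start: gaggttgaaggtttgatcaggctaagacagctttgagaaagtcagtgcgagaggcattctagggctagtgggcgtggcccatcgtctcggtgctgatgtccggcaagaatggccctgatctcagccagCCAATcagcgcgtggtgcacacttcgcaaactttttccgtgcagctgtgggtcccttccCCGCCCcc
Col3a1, chr1:45311288-45311537, plus strand, with TATAAA 117 bases before the start: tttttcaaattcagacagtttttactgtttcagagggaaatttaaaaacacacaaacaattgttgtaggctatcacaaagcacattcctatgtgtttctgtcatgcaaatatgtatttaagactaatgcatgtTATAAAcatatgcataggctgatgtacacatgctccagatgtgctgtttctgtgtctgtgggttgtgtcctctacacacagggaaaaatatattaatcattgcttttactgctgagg

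Windows of 250 bases before the start were at hand for 40 of the 55 members. CCAAT occurred in 14 of these 40 members (35.0%) against 33.8% of all 32851 windows, and TATAAA in 5 (12.5%) against 12.4%. GGGCGG occurred in 23 members (57.5%) against 32.7% of windows, and the AP-1 letters TGACTCA in 1, Col6a1 (2.5%), against 4.46%. In the annotation of the later build GRCm39 some transcripts begin further upstream than the RefSeq start: the printed stretches of Col1a2 and Col4a2 lie inside their own annotated genes, and that of Col4a1 inside Col4a2. A match to such short letters is a description and no evidence that a factor binds there. In the same annotation the transcribed regions of Col4a1 and Col4a2 overlap by 356 bases, and 311 exon bases are common to both, 4.17% of those of Col4a1 and 4.33% of those of Col4a2. The setting for strand in the counting is not given in the sources used here, so a small part of the reads of either gene could have been credited to the other.

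At 9 h after CHI in C57BL/6J mice, the paired basement membrane chains Col4a1 and Col4a2, the fibrillar chains Col3a1 and Col5a3, the beaded filament chain Col6a2 and the laminin γ1 chain Lamc1 were higher than in sham mice. Of 52 members with enough counts to test, 8 were higher and 2 lower at an adjusted p below 0.05 (edgeR's quasi-likelihood test with Benjamini-Hochberg adjustment over all genes tested, with sex and age as covariates). Among all 16967 genes tested, 7.05% were called higher and 7% lower. The median log2 fold change was 0.06 over the members and -0.01 over all genes.

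Col4a1 (chromosome 8, 11248423 to 11362826 of GRCm39, minus strand) ranged in the 6 sham mice from 3.33 to 7.83 TPM with a median of 5.48, and in the 15 CHI mice from 7.38 to 17.7 TPM with a median of 9.98. The ranges overlapped narrowly, and 11 of 15 CHI mice lay above every sham mouse. The log2 fold change was 0.95 ± 0.12 (SE; adjusted p = 8.55e-06 by edgeR's quasi-likelihood test). Its partner Col4a2 (chromosome 8, 11362471 to 11499287, plus strand), which joins 2 α1 chains in the same trimer, had 3.32, 5.20 and 7.98 TPM as lowest, median and highest sham values against 6.75, 9.51 and 15.0 TPM in CHI. Here 12 of 15 CHI mice lay above every sham mouse, with a log2 fold change of 0.93 ± 0.14 (adjusted p = 8.4e-05). Other type IV chains were not called. Col4a3, Col4a4, Col4a5 and Col4a6 had log2 fold changes of -0.64 ± 0.59, -0.05 ± 0.42, -0.27 ± 0.20 and -0.25 ± 0.34, and none of them passed the test. Their difference from Col4a1 or Col4a2 was not tested.

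Among the 11 fibrillar collagens, 3 were called higher. Col3a1 (chromosome 1, 45350698 to 45395840), the type III chain of extensible connective tissue, went from 0.0593, 0.207 and 0.479 TPM in sham to 0.259, 1.02 and 5.36 TPM in CHI as lowest, median and highest values. Of the 15 CHI mice 12 lay above every sham mouse, and the log2 fold change was 1.96 ± 0.44 (adjusted p = 0.0042). Col5a3 (chromosome 9, 20681337 to 20726418), a chain of the type V collagen that starts and limits fibres, had sham values of 0, 0.144 and 0.196 TPM and CHI values of 0.141, 0.439 and 1.12 TPM. All but 1 of the CHI mice lay above every sham mouse. The log2 fold change was 2.15 ± 0.42 (adjusted p = 0.0012), from estimated counts of 0 to 12 in sham and 19 to 91 in CHI libraries, and a count of 0 allows up to 3.

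**Figure D1:**
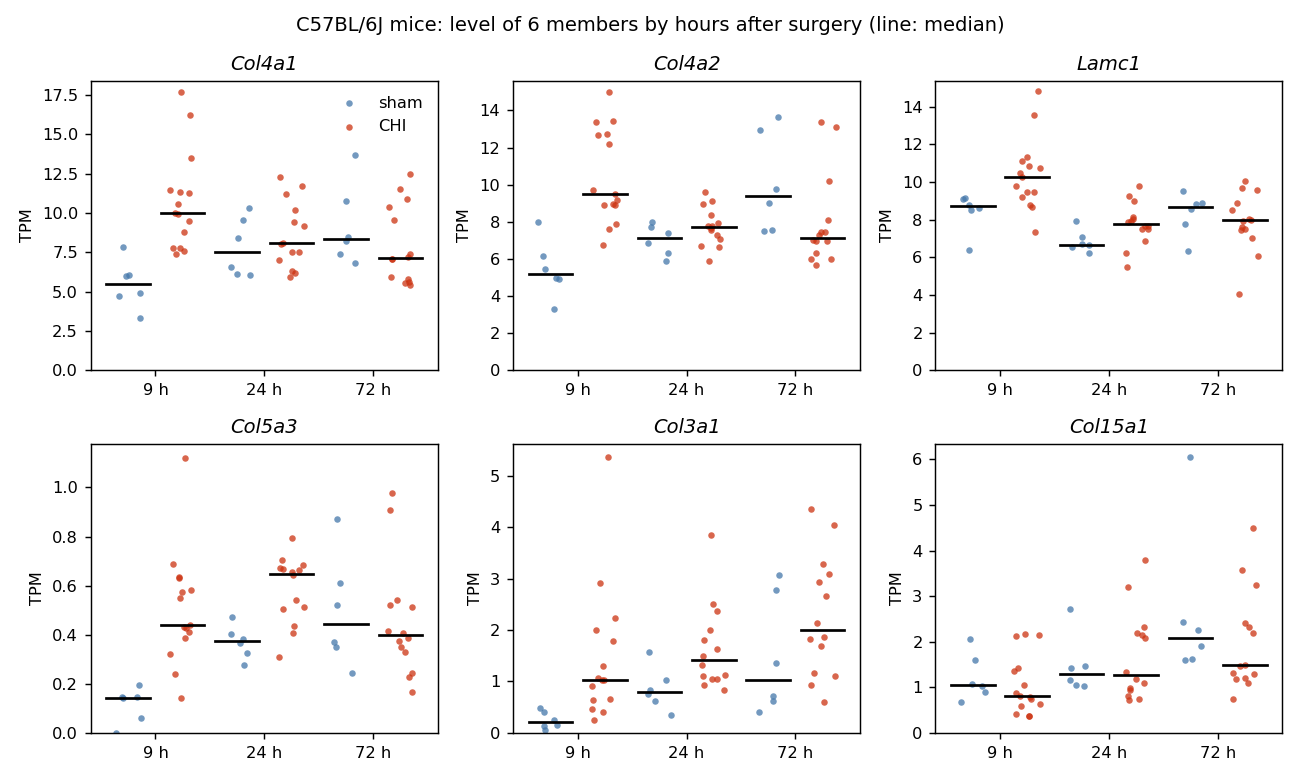
TPM of Col4a1, Col4a2, Lamc1, Col5a3, Col3a1 and Col15a1 in C57BL/6J mice (vertical axis, 1 panel per gene) by hours after surgery, with 1 point per mouse in CHI and sham and a line at each group's median. At 9 h the Col4a1 median was 9.98 TPM in CHI and 5.48 TPM in sham, while at 24 and 72 h the CHI and sham points of each gene overlap.

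The third fibrillar call, Col11a2, depended on how gene length was handled. Its log2 fold change from counts was 0.38 ± 0.13 (adjusted p = 0.046), but its mean was 3.16 ± 1.81 TPM (SD, n = 6) in sham and 2.86 ± 0.60 TPM (SD, n = 15) in CHI, and DESeq2 with gene-length offsets gave -0.01. Col1a1, which pairs with Col1a2 in type I collagen, was at 0.171, 0.554 and 0.635 TPM in sham and 0.394, 0.760 and 2.37 TPM in CHI and missed the threshold, with a log2 fold change of 0.95 ± 0.33 (adjusted p = 0.0556). Col1a2 was at 0.08 ± 0.19, although both chains are built into the same trimer.

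Of the beaded filament collagens, 1 of 6 was called. Col6a2, a chain of the type VI microfibrils that sit between cells and fibres, was at 1.81, 2.62 and 4.42 TPM in sham and 2.71, 3.91 and 6.37 TPM in CHI, with a log2 fold change of 0.56 ± 0.13 (adjusted p = 0.004). Only 3 of 15 CHI mice lay above every sham mouse. Col7a1, the anchoring fibril chain of skin, was called higher from very few counts, 2 to 9 in sham and 3 to 32 in CHI libraries, by 1.07 ± 0.33 on the log2 scale (adjusted p = 0.029).

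The members called lower were Col15a1, a heparan sulphate or chondroitin sulphate bearing collagen of vessel basement membranes, and Col26a1. Col15a1 was at 0.677, 1.05 and 2.06 TPM in sham and 0.368, 0.802 and 2.16 TPM in CHI, with largely overlapping groups and a log2 fold change of -0.68 ± 0.21 (adjusted p = 0.031). Col26a1 was at 1.10, 1.63 and 3.49 TPM in sham and 0.462, 1.24 and 4.16 TPM in CHI, with a log2 fold change of -0.55 ± 0.18 (adjusted p = 0.046). DESeq2 with gene-length offsets, which called 2291 genes, called neither of them. The only member it called lower was Col2a1. Of 15 alternatives, 8 kept Col15a1 called and 5 kept Col26a1.

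Of the 11 laminin chains 1 was called. Lamc1, the γ1 chain found in most laminin trimers, was at 6.36, 8.72 and 9.15 TPM in sham and 7.36, 10.2 and 14.8 TPM in CHI. Although 12 of 15 CHI mice lay above every sham mouse, the change was small, 0.28 ± 0.08 on the log2 scale (adjusted p = 0.022). The β chains Lamb1 and Lamb2 were at -0.17 ± 0.18 and 0.07 ± 0.07, and the α chains Lama2 and Lama5 at 0.12 ± 0.11 and 0.01 ± 0.16. Lama4, the endothelial α chain, was at 2.16, 3.18 and 3.31 TPM in sham and 1.43, 2.48 and 3.39 TPM in CHI, -0.34 ± 0.12 on the log2 scale (adjusted p = 0.0576).

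These mice at 9 h came from 2 experiments, of 14 and 7 mice. Within them Col4a1 had log2 fold changes of 0.87 and 1.16, Col4a2 of 0.92 and 1.05 and Col5a3 of 2.02 and 2.61, all with adjusted p-values between 0.00177 and 0.0319 by edgeR's quasi-likelihood test. Col3a1 was at 2.53 in the larger (adjusted p = 0.000253) and 1.01 in the smaller (adjusted p = 0.619). Lamc1, Col7a1, Col15a1, Col11a2 and Col26a1 kept their direction in both experiments but were called in neither. Ttr exceeded 100 TPM in 4 of 15 CHI and 3 of 6 sham mice here. Without those 7 mice 4 members were called, and Col4a1, Col4a2, Col5a3 and Col3a1 had log2 fold changes of 0.96, 0.89, 2.37 and 2.25, while Col15a1 moved from -0.68 to -0.29. Leaving out 1 sham mouse, replicate 3, lowered the count of members called from 10 to 6. The share of all genes called in these smaller fits is not given here.

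Marker lists of the cells that make these chains were read beside the members. Of 12 endothelial markers 3 were called higher and 3 lower, and their summed level was 212 to 293 TPM in sham (median 261) and 240 to 346 TPM in CHI (median 308). Of 10 mural cell markers 2 were higher. Of 11 markers of meningeal and perivascular fibroblasts 3 were higher, and their summed level had nearly equal medians, 23.1 TPM in sham and 22.5 TPM in CHI, but ranged from 19.2 to 28.7 and from 15.6 to 65.2 TPM. Of 6 microglial markers 3 were lower. None of the 10 choroid plexus markers passed edgeR's quasi-likelihood test, although all 10 had negative values (median -1.73 on the log2 scale) and 3 had an unadjusted p below 0.05, and DESeq2 called 4 of them and DESeq2 with gene-length offsets 3. No marker gene was at 0 in every mouse. The part of cell composition in the members' differences was not tested.

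The genes that build, bind and degrade this matrix moved in part. Of 26 tested genes of collagen processing and crosslinking, 4 were higher and 4 lower. Lox, the oxidase that starts crosslinking, had a log2 fold change of 1.71 ± 0.39 (adjusted p = 0.00366) and Colgalt2, which adds galactose to collagen, of 0.56 ± 0.14 (adjusted p = 0.00733). P4ha1, a prolyl hydroxylase subunit needed for a stable triple helix, was lower by -0.56 ± 0.08 (adjusted p = 3.1e-05), and Colgalt1 by -0.41 ± 0.08 (adjusted p = 0.000921). Of 13 collagen and laminin receptors, the fibrillar collagen receptor Itga11 was higher with 1.75 ± 0.24 (adjusted p = 2.52e-05) and the laminin receptor Bcam lower with -0.38 ± 0.10 (adjusted p = 0.00976). Of 10 matrix regulators 3 were higher, among them the metalloproteinase inhibitors Timp1 with 1.98 ± 0.47 and Timp3 with 0.33 ± 0.11 (adjusted p = 0.00528 and 0.0376 by edgeR's quasi-likelihood test).

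The partners that tie the collagen IV and laminin networks together did not pass the test. Of 5 such genes 0 were called by edgeR's quasi-likelihood test and 2 had an unadjusted p below 0.05: Nid1 at 0.31 ± 0.12 and Agrn at -0.19 ± 0.08. DESeq2 called 0, and DESeq2 with gene-length offsets called 1 higher and 1 lower.

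At 24 h in C57BL/6J mice 0 of 51 members were called by edgeR's quasi-likelihood test, against 0.404% of all genes. An unadjusted p below 0.05 was found for 6 members and for 9.07% of all genes. DESeq2 called 1 member, Col3a1, and DESeq2 with gene-length offsets 0. The smallest adjusted p was that of Col3a1, at 0.353, 0.802 and 1.58 TPM in sham and 0.837, 1.41 and 3.85 TPM in CHI, with a log2 fold change of 0.77 ± 0.19 (adjusted p = 0.084). Col1a1 was at 0.69 ± 0.23 (adjusted p = 0.297). At 72 h 0 of 53 members were called, with 0% of all genes called and 0 members by either DESeq2 fit. Of the members 5 had an unadjusted p below 0.05, against 5.15% of all genes. Col3a1 was at 0.85 ± 0.24 (adjusted p = 0.44). The median standard error of the members' log2 fold changes was 0.17 at 24 h and 0.21 at 72 h, but it differed between members: that of Lamc1 was 0.06 and 0.11, and its log2 fold changes were 0.06 and -0.09.

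**Figure D2:**
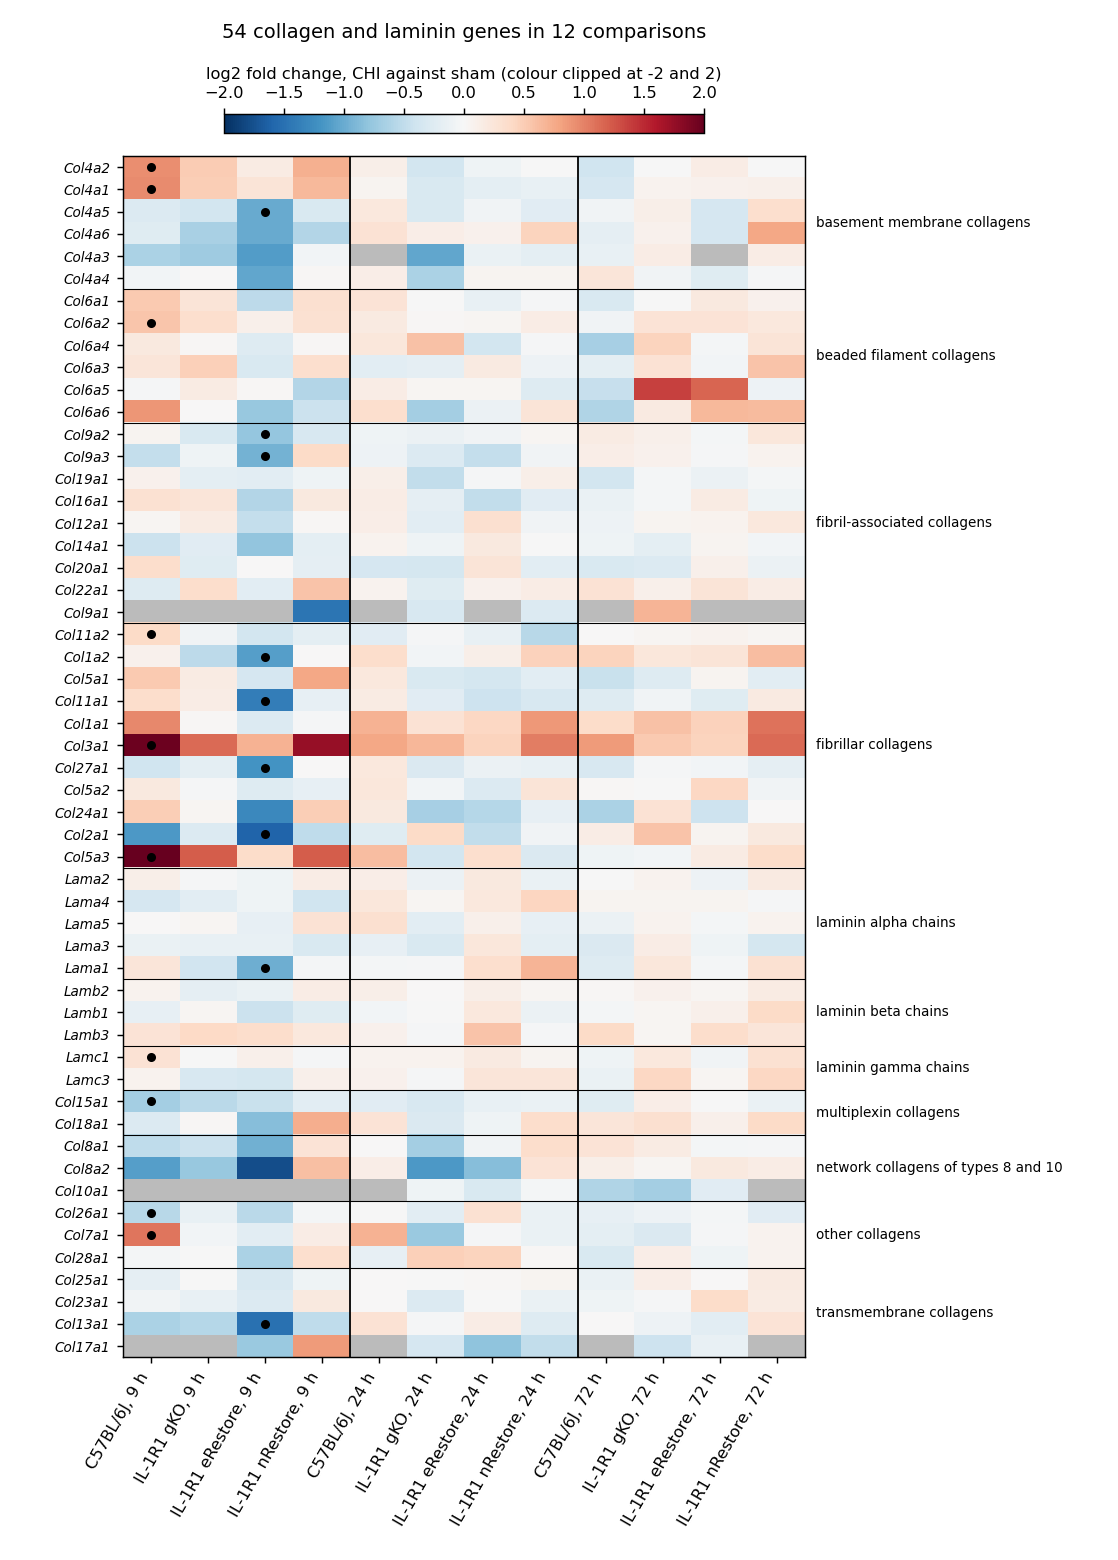
Log2 fold change of CHI against sham (colour, limited to -2 to 2) for 54 of the 55 members (rows, by class) in 12 comparisons (columns, 4 strains at 9, 24 and 72 h). A dot marks an adjusted p below 0.05 and grey a member not tested. The dots stand in the C57BL/6J column at 9 h (10) and the IL-1R1 eRestore column at 9 h (9).

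Of the 8 members that rose in C57BL/6J mice at 9 h, Col4a1, Col4a2, Col5a3, Col3a1 and Col6a2 had positive log2 fold changes in each of the other strains, of which none passed edgeR's quasi-likelihood test. The values of Col6a2 were 0.34 ± 0.14 in IL-1R1 gKO, 0.10 ± 0.17 in IL-1R1 eRestore and 0.30 ± 0.18 in IL-1R1 nRestore mice. Col11a2 was negative in all 3, at -0.07, -0.36 and -0.20, and Lamc1 was near 0, at -0.01, 0.10 and -0.02. Col7a1 was at -0.05, -0.21 and 0.15. Col4a1 was at 0.49 ± 0.16 in mice labelled IL-1R1 gKO, 0.27 ± 0.11 in IL-1R1 eRestore and 0.65 ± 0.30 in IL-1R1 nRestore mice (adjusted p = 0.238, 0.145 and 0.404 by edgeR's quasi-likelihood test). Its CHI and sham medians there were 8.86 and 4.85, 7.02 and 6.10, and 7.35 and 6.45 TPM, and the groups overlapped in all 3. The IL-1R1 eRestore value was -0.04 under DESeq2 with gene-length offsets. Col4a2 followed with 0.51 ± 0.15, 0.17 ± 0.12 and 0.71 ± 0.33 (adjusted p = 0.162, 0.402 and 0.415).

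Col3a1 was at 1.13 ± 0.38, 0.70 ± 0.45 and 1.74 ± 0.38 in the IL-1R1 gKO, eRestore and nRestore mice (adjusted p = 0.245, 0.345 and 0.0504 by edgeR's quasi-likelihood test). Its lowest, median and highest TPM were 0.0867, 0.766 and 1.42 in sham and 0.339, 1.56 and 3.45 in CHI of IL-1R1 gKO mice. Col5a3 was at 1.22 ± 0.31, 0.37 ± 0.34 and 1.22 ± 0.33 in the same order (adjusted p = 0.105, 0.519 and 0.105). In IL-1R1 nRestore mice its groups did not overlap, with 0.203 to 0.346 TPM in the 4 sham mice and 0.362 to 0.767 TPM in the 6 CHI mice. Nor did the groups of Lama2 overlap there, and the share of all genes without overlap in these small groups is not given here.

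**Figure D3:**
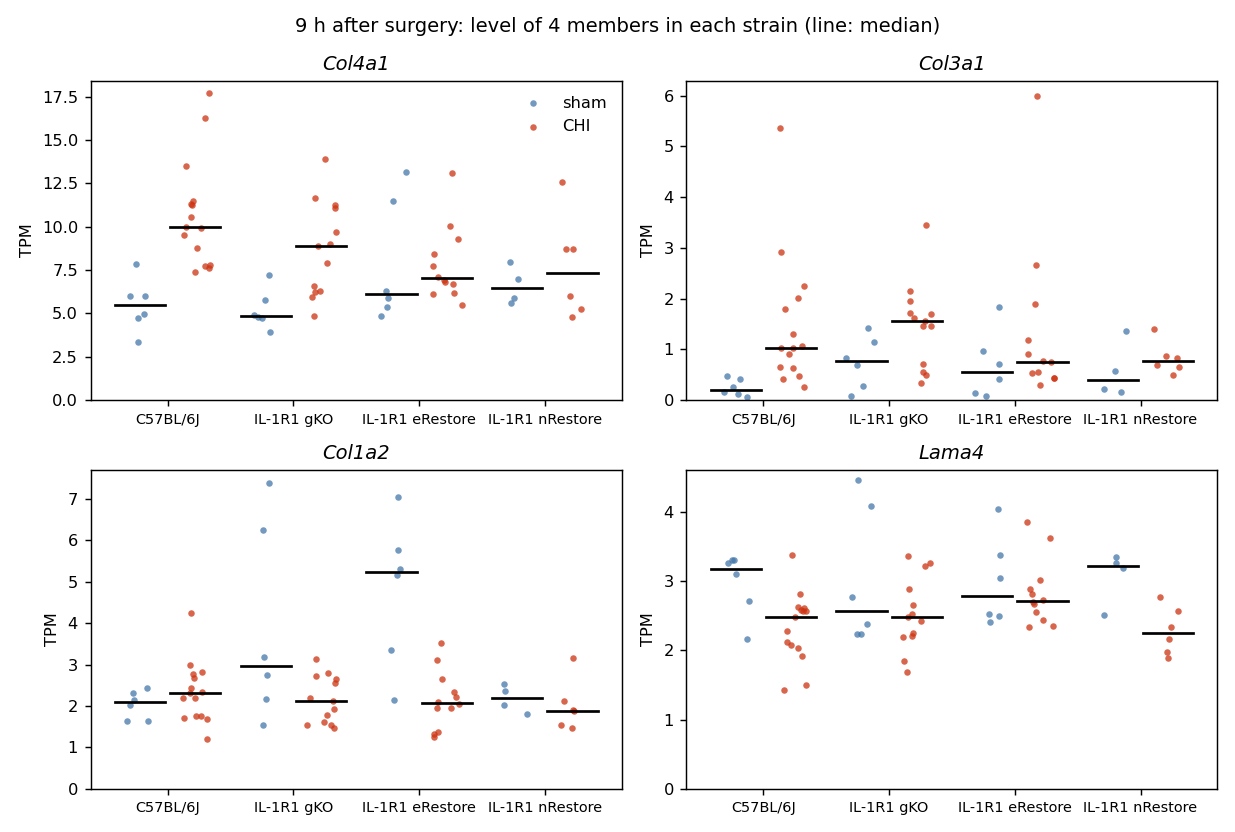
TPM of Col4a1, Col3a1, Col1a2 and Lama4 at 9 h (vertical axis, 1 panel per gene) in sham and CHI mice of the 4 strains (horizontal axis), with 1 point per mouse and a line at the median. For Col4a1 the CHI median was above the sham median in each strain, and for Col1a2 the IL-1R1 eRestore sham mice had the highest median of the 8 groups, 5.23 TPM.

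By edgeR's quasi-likelihood test 0 of 52 members were called at 9 h in IL-1R1 gKO mice, where 0.199% of all genes were called. An unadjusted p below 0.05 was found for 10.7% of all genes and for 7 of the members. DESeq2 with gene-length offsets called 2 of them, Col4a1 and Col5a3, both higher. In IL-1R1 nRestore mice 0 of 54 were called, against 0.608% of all genes. Of these members 4 had an unadjusted p below 0.05, against 13.1% of all genes, and DESeq2 with gene-length offsets called 1, Col3a1. At 24 and 72 h no member was called by edgeR's quasi-likelihood test in IL-1R1 gKO, eRestore or nRestore mice, where 0.0059% and 0%, 0% and 0.00605%, and 0% and 0.0121% of all genes were called. Between 3 and 6 members per comparison had an unadjusted p below 0.05, against 2.25% to 9.05% of all genes. DESeq2 with gene-length offsets called 0 members in each of these 6 comparisons.

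In the IL-1R1 eRestore mice at 9 h, 0 of 53 members were higher and 9 lower, against 4.1% and 3.24% of all genes, and the median log2 fold change was -0.36 over the members and -0.02 over all genes. Col1a2 was at 2.15, 5.23 and 7.04 TPM in sham and 1.25, 2.07 and 3.52 TPM in CHI mice, so that 7 of 12 CHI mice lay below every sham mouse, with a log2 fold change of -1.10 ± 0.20 (adjusted p = 0.00401 by edgeR's quasi-likelihood test). The other 8, Col9a2, Col4a5, Col27a1, Col13a1, Col9a3, Col2a1, Lama1 and Col11a1, had log2 fold changes from -1.60 to -0.78. DESeq2 with gene-length offsets also called 9 members lower, but Col9a2, Col13a1, Lama1 and Col11a1 were not among them (adjusted p = 0.0695, 0.0794, 0.262 and 0.154) and Col4a3, Col8a2, Lama5 and Col18a1 were. The summed fibroblast markers were at a lowest of 15.5 and a median of 50.7 TPM in these sham mice and at 10.8 and 20.9 TPM in the CHI mice, with 5 of 11 markers called lower, while C57BL/6J sham mice had a median of 23.1 TPM. All 10 choroid plexus markers had negative values, with a median of -2.62 on the log2 scale. Of these, 0 were called by edgeR's quasi-likelihood test, 7 had an unadjusted p below 0.05 and DESeq2 with gene-length offsets called 8. The part of these cells in the members' values was not tested. Without the 4 mice over 100 TPM of Ttr 0 members were called, with Col1a2 at -0.92 (adjusted p = 0.0625). Leaving out sham replicates 2, 5 and 6 gave 4, 3 and 17 calls. For the fits with mice left out the share of all genes called is not given here.

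The difference of the CHI effect between strains was tested itself, each strain against C57BL/6J with the same C57BL/6J mice. At 9 h the 10 IL-1R1 nRestore mice, aged 3.3 to 4.0 months, all came from an experiment with no C57BL/6J mice, which were aged 4.4 to 4.8 months, so that for them strain, experiment and age cannot be told apart. Of the 19 IL-1R1 gKO mice 8 came from that experiment too, whereas the IL-1R1 eRestore mice shared both experiments of the C57BL/6J mice. At 9 h 0 of 54 members were called by edgeR's quasi-likelihood test for IL-1R1 eRestore, gKO or nRestore mice, where 0.0107%, 0% and 0.00534% of all genes were called. Of the members 15, 3 and 5 had an unadjusted p below 0.05, against 8.58%, 6.4% and 5.56% of all genes. For IL-1R1 eRestore 47 of 54 members had a negative difference, with a median of -0.47 against -0.002 over all genes. DESeq2 with gene-length offsets called 1 member, Col1a2 for IL-1R1 eRestore. The differences from C57BL/6J in IL-1R1 eRestore mice were -0.68 ± 0.22 for Col4a1, -0.75 ± 0.23 for Col4a2 and -1.67 ± 0.53 for Col5a3 on the log2 scale (adjusted p = 0.25, 0.196 and 0.248). For Col4a1 they were -0.44 ± 0.22 in IL-1R1 gKO and -0.49 ± 0.25 in IL-1R1 nRestore mice (adjusted p = 0.774 and 0.916). A p above the threshold does not show that the strains respond alike.

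At 24 h the strain differences gave 0 members by edgeR's quasi-likelihood test against 0.0108%, 0.00541% and 0% of all genes for IL-1R1 eRestore, gKO and nRestore. An unadjusted p below 0.05 was found for 3, 5 and 0 members, against 3.74%, 8.51% and 4.08% of all genes. At 72 h the strain differences gave 0 members against 0%, 0% and 0.00543%. There 5, 2 and 5 members had an unadjusted p below 0.05, against 4.31%, 2.87% and 4.89% of all genes. DESeq2 with gene-length offsets called 0 members in these 6 comparisons. Between females and males the CHI effect over the 4 strains differed for 0 members at 9, 24 and 72 h by both tests. By edgeR's quasi-likelihood test 0%, 0% and 0.00543% of all genes were called. An unadjusted p below 0.05 was found for 1, 3 and 7 members, against 2.29%, 5.26% and 3.8% of all genes. At 72 h 45 of 55 members had a more positive effect in males, with a median difference of 0.24 against -0.002 over all genes. The IL-1R1 nRestore groups held no females at 72 h, and their CHI groups at 9 and 24 h held 1 male each.

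With the 4 strains in 1 fit at 9 h (46 CHI and 22 sham mice, strain as a further covariate), 6 of 54 members were higher and 14 lower, 11.1% and 25.9% of the members against 12% and 11.9% of all genes. The share higher was close to the background and the share lower was above it. The median log2 fold change was -0.12 over the members and 0.00 over all genes.

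The members higher were again Col4a1 with 0.57 ± 0.09, Col4a2 with 0.53 ± 0.09, Col5a3 with 1.19 ± 0.21, Col3a1 with 1.27 ± 0.22 and Col6a2 with 0.30 ± 0.08 (adjusted p = 9.72e-07, 1.23e-05, 1.24e-05, 1.26e-05 and 0.00442 by edgeR's quasi-likelihood test), joined by the laminin chain Lamb3. Col4a1 was at 3.33, 5.85 and 13.2 TPM in sham and 4.80, 8.71 and 17.7 TPM in CHI. Lamb3, the β3 chain of epithelial laminin, was at 0.273, 0.511 and 1.27 TPM in sham and 0.319, 0.762 and 3.53 TPM in CHI, with 0.36 ± 0.08 (adjusted p = 0.000809). These groups overlapped for each of these genes. The annotated region of Lamb3 holds, on the opposite strand, all or part of other genes, G0s2 and Hsd11b1 among them. The strand setting of the counting is not given, and whether reads of those genes entered the Lamb3 counts was not tested.

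The members lower came from many classes. The type IV chains Col4a3, Col4a5 and Col4a6 were called lower and their sister chains Col4a1 and Col4a2 higher. Col4a5 was at 0.386, 0.685 and 1.62 TPM in sham and 0.228, 0.502 and 1.12 TPM in CHI, with -0.54 ± 0.12 (adjusted p = 0.000529 by edgeR's quasi-likelihood test). Col4a3 had a mean of 0.135 TPM and a median count of 8 over all mice, and stayed called in 5 of 10 alternatives. Col4a3, Col4a5 and Col4a6 stayed negative in all 10, but none of them was called in a single experiment. Without mice over 100 TPM of Ttr Col4a3 and Col4a5 were not called. Lama4 was at 2.16, 3.07 and 4.46 TPM in sham and 1.43, 2.54 and 3.85 TPM in CHI, with -0.26 ± 0.06 (adjusted p = 0.00117). Col15a1 fell by 0.54 ± 0.12, Col13a1, a transmembrane collagen, by 0.89 ± 0.21, and the cartilage collagen Col2a1 by 0.97 ± 0.24 on the log2 scale (adjusted p = 0.000617, 0.00112 and 0.00129). Col1a2 was at -0.47 ± 0.13 (adjusted p = 0.00367), and the others, Col14a1, Col8a1, Col8a2, Col9a2, Col9a3 and Col26a1, lay between -0.996 and -0.34. DESeq2 with gene-length offsets, which called 3876 genes, called 12 members lower, but not Col15a1, Col26a1, Col9a2 or Col9a3.

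**Figure D4:**
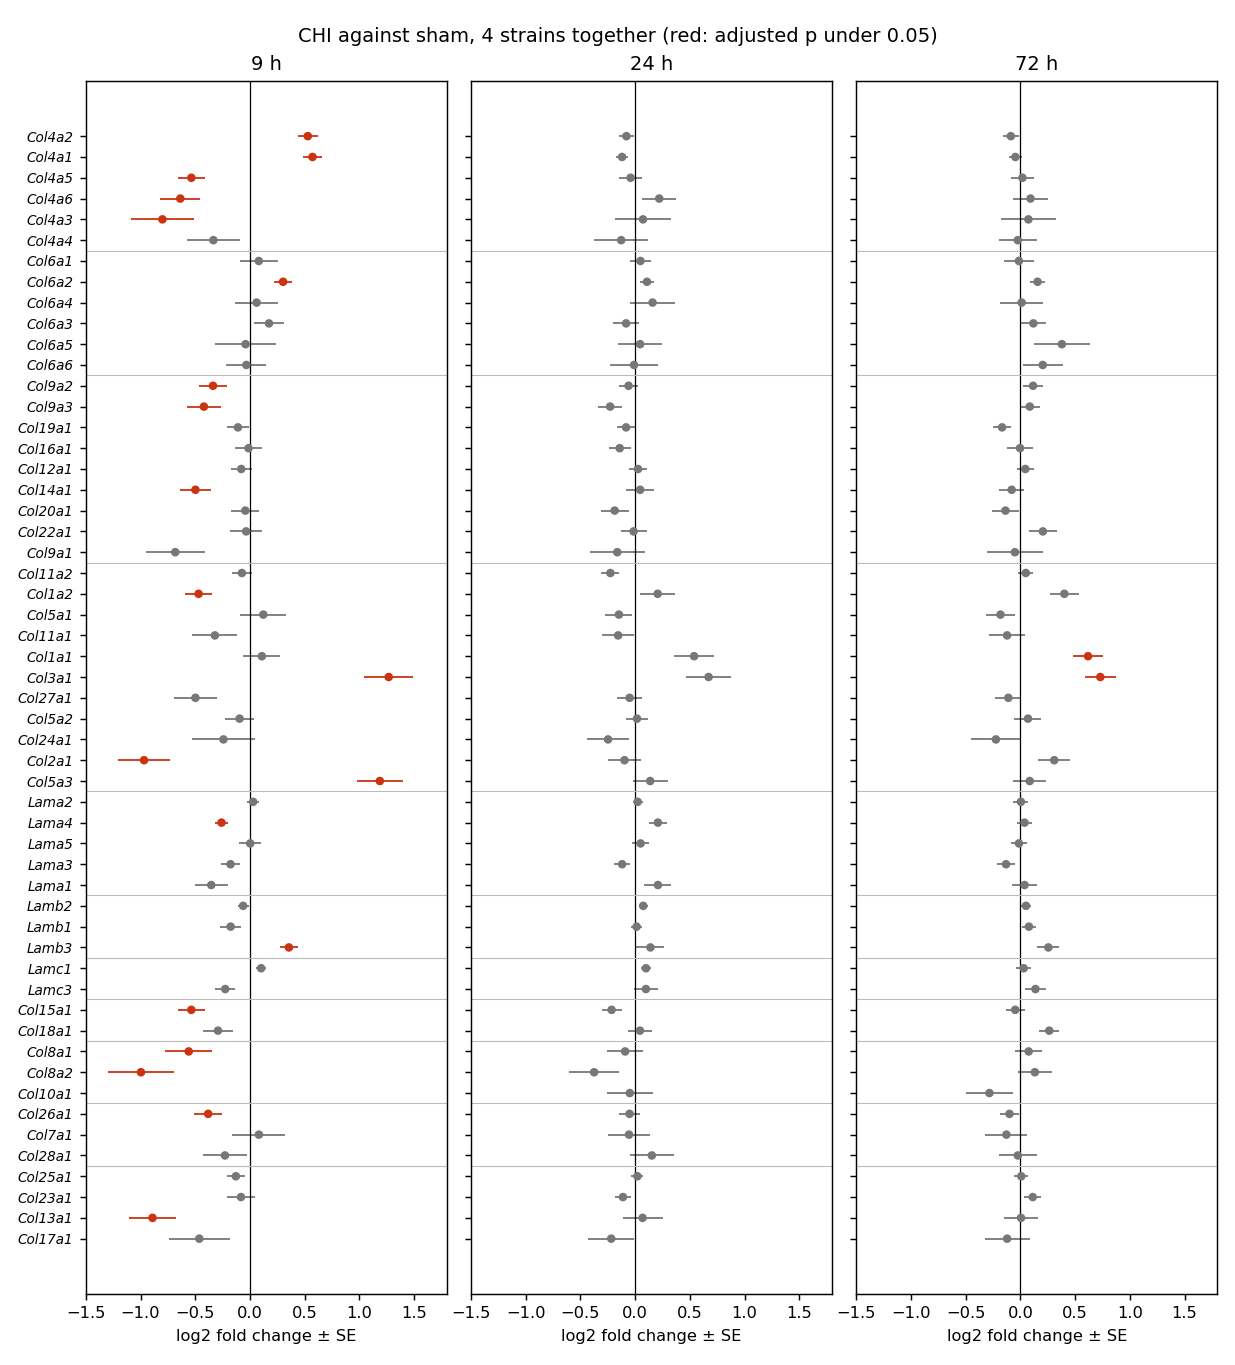
Log2 fold change of CHI against sham (horizontal axis) with its standard error (bars) for 54 members (rows) over the 4 strains together at 9, 24 and 72 h (3 panels), with red for an adjusted p below 0.05. At 9 h 6 members are red to the right of 0 and 14 to the left, at 24 h none, and at 72 h Col3a1 and Col1a1 to the right.

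Within the 3 experiments at 9 h, of 31, 19 and 18 mice, the last with IL-1R1 gKO and nRestore mice only, Col4a1 was at 0.50, 0.75 and 0.72, Col4a2 at 0.54, 0.61 and 0.73 and Col3a1 at 1.70, 0.61 and 1.93. Col4a1 and Col4a2 were not called in the smallest (adjusted p = 0.137 and 0.121 by edgeR's quasi-likelihood test). Col3a1 was not called in the second (adjusted p = 0.492) and Col5a3 not in the largest (adjusted p = 0.0693). Lama4, called in none of them, was at -0.23, -0.31 and -0.20, but Col1a2 was at -0.44, -0.75 and 0.11. The numbers of members called were 6 (4 higher, 2 lower), 6 (4 and 2) and 2 (2 and 0), against 20 over all 68 mice. The shares of 12% and 11.9% of all genes belong to the fit of 68 mice. Shares for single experiments or without the mice over 100 TPM of Ttr are not given here. Of the 11 fibroblast markers 6 were lower over the 4 strains at 9 h, and of the 10 choroid plexus markers 9. Without the mice over 100 TPM of Ttr 5 members were higher and 7 lower, with Col1a2 at -0.53 and Col15a1 at -0.49, whereas Col8a2 went from -0.996 to -0.25 and Col8a1 from -0.56 to 0.08.

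Over the 4 strains 0 of 55 members were called at 24 h by edgeR's quasi-likelihood test, against 1.48% of all genes. Of them 8 had an unadjusted p below 0.05, against 14.0% of all genes. DESeq2 called 1 member, and DESeq2 with gene-length offsets 2. Col3a1 was at 0.67 ± 0.20 (adjusted p = 0.073) and Col1a1 at 0.54 ± 0.18 (adjusted p = 0.123). Col4a1 was at -0.12 ± 0.06 (adjusted p = 0.315). The experiments at 24 h held 18 CHI and 1 sham, 8 and 12, and 17 and 9 mice, so surgery and experiment were partly tied. IL-1R1 eRestore mice were aged 4.9 to 7.4 months in CHI and 4.5 to 5.3 in sham. Ages in CHI and sham were 4.5 to 7.4 and 4.5 to 5.3 months in IL-1R1 gKO mice. In IL-1R1 nRestore mice they were 4.3 to 7.2 and 4.3 to 5.3 months. Of the IL-1R1 nRestore mice 7 of 8 CHI and 2 of 5 sham mice were female. Sex and age were covariates, but experiment was not. These uneven groups also entered the 24 h comparisons of single strains and the change from 9 to 24 h.

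At 72 h the fibrillar chains Col3a1 and Col1a1 were higher, 2 of 55 members against 0.679% of all genes called higher, and no member was among the 0.0272% called lower. Col3a1 was at 0.400, 0.937 and 3.06 TPM in the 23 sham mice and 0.610, 2.20 and 7.43 TPM in the 44 CHI mice, 17 of which lay above every sham mouse. Its log2 fold change was 0.73 ± 0.14 (adjusted p = 0.0012 by edgeR's quasi-likelihood test). Col1a1 was at 0.746, 1.97 and 3.28 TPM in sham and 1.45, 2.59 and 5.55 TPM in CHI, with 14 CHI mice above every sham mouse and 0.62 ± 0.14 (adjusted p = 0.00675). In the experiments of 37 and 16 mice Col3a1 was at 0.46 and 1.19 and Col1a1 at 0.35 and 1.22, called in neither. Of the 11 fibroblast markers 0 were called by edgeR's quasi-likelihood test at 72 h, 3 had an unadjusted p below 0.05 and 10 were positive, and their summed median was 57.9 TPM in sham and 76.4 TPM in CHI. Of 6 microglial markers 4 were higher.

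The change of the CHI effect with time was tested over the 4 strains. From 9 to 24 h, 10 of 55 members differed: Col4a1, Col4a2 and Col5a3 had a higher CHI effect at 9 h, by 0.72, 0.66 and 1.00 on the log2 scale, and 7 members had a lower one. Over all genes 5.55% had a higher and 5.73% a lower effect at 9 h. Against 72 h the same 3 members were higher at 9 h, by 0.65, 0.66 and 1.10, and 11 lower, among them Col2a1, Col1a2 and Col18a1, against 6.68% and 7.07% of all genes. The adjusted p of Col4a1 was 1.3e-08 and 9.05e-08 by edgeR's quasi-likelihood test. Since no experiment held both 9 h and later mice, and 9 h tissue was taken at another time of day than the later tissue, time, experiment and hour of the day cannot be told apart. Age, a covariate in these fits, also differed with time. C57BL/6J mice were aged 4.4 to 4.8 months at 9 h and 5.17 to 6.8 months at 72 h.

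The members also differed between sham mice of different times, which had no injury. Between sham mice at 9 h (22) and at 24 h (22), 5 of 55 members were higher at 9 h and 30 lower, 9.09% and 54.5% against 21.6% and 24.2% of all genes, with a median log2 difference of -0.44 over the members and -0.02 over all genes. All 11 fibrillar collagens were lower. Between 9 and 72 h (23) 7 were higher and 35 lower, against 21.1% and 23.7% of all genes. Age was not a covariate in these sham fits, and C57BL/6J sham mice were aged 4.4 to 4.8 months at 9 h. At 24 and 72 h they were aged 4.8 to 5.93 and 5.17 to 6.8 months. Time was thus tied to experiment and hour of the day, and partly to age.

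Col4a1 was at 3.33, 5.85 and 13.2 TPM in sham mice at 9 h and 6.07, 8.76 and 14.3 TPM at 24 h, a log2 difference of -0.51 ± 0.07 (adjusted p = 5.01e-08 by edgeR's quasi-likelihood test). The CHI median of Col4a1 at 9 h, 8.71 TPM, was thus close to the sham medians at 24 and 72 h, 8.76 and 8.52 TPM. Col11a1, a fibrillar chain, was at 0.108, 0.859 and 2.82 TPM at 9 h and 0.681, 2.68 and 6.69 TPM at 24 h (-1.55 ± 0.22).

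Col6a1 was at 1.57, 5.58 and 11.9 TPM at 9 h and 5.63, 13.0 and 21.8 TPM at 24 h (-1.22 ± 0.17), and Col24a1 differed by -1.84 ± 0.27. The summed fibroblast markers moved with them, with medians of 24.8, 64.8 and 57.9 TPM in sham mice at 9, 24 and 72 h, and 10 and 11 of the 11 markers were lower at 9 h than at 24 and 72 h. The part of fibroblast content in the members' differences was not tested.

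**Figure D5:**
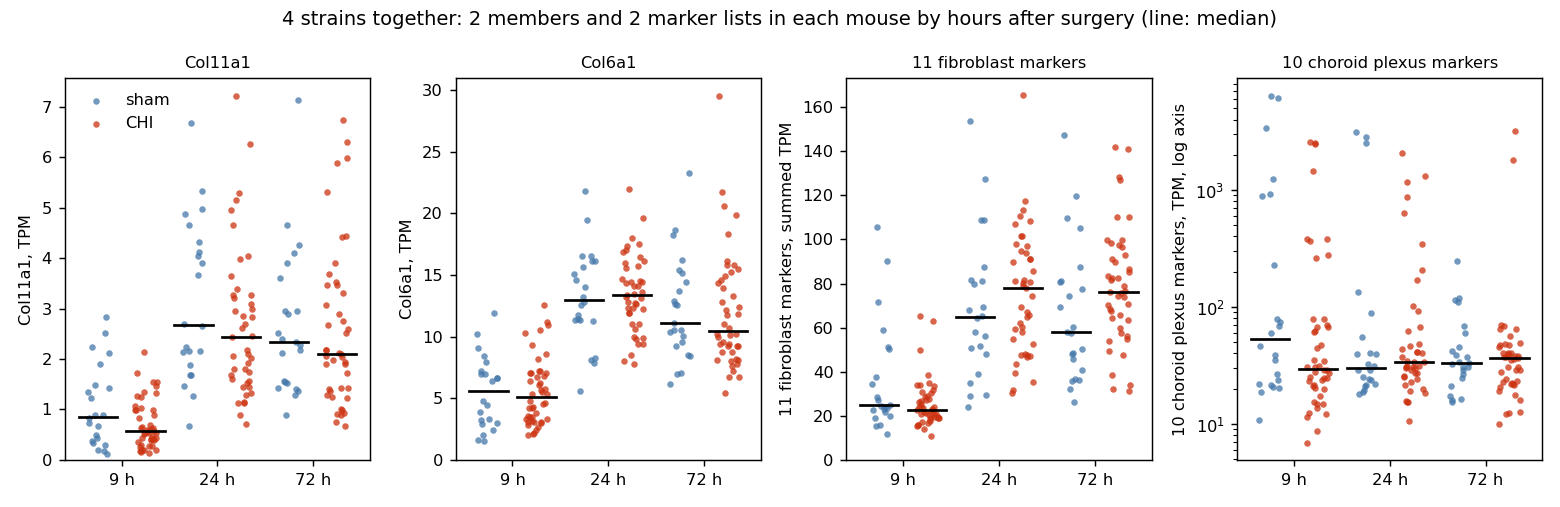
TPM of Col11a1 and Col6a1 and the summed TPM of 11 fibroblast markers and of 10 choroid plexus markers (log axis) in CHI and sham mice of the 4 strains (1 point per mouse, line at the median) by hours after surgery. The fibroblast sum had sham medians of 24.8, 64.8 and 57.9 TPM at 9, 24 and 72 h, and the choroid plexus sum spread from 6.91 to 6380 TPM at 9 h.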

How the data were processed

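The authors mapped paired reads to the mouse genome GRCm39 with STAR and quantified them with Salmon in the nf-core RNA-seq pipeline, and tested with DESeq2. The strand setting and annotation release are not given in the sources used here. The deposited values are estimated counts per gene, which need not be whole, and TPM, which the authors scaled per library. The members and lists were chosen with earlier results of these data known.

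Estimated counts were rounded and fitted with edgeR 4.0.16 (R 4.3.3, TMM factors, robust quasi-likelihood test, two-sided). Genes entered a fit if they reached 10 counts in a number of mice equal to the smaller group of the comparison. Where strains were pooled, that number was the smallest group of 1 strain, time and surgery. It was 4 mice where 9 h mice were included and 5 at 24 or 72 h alone. Covariates were sex and age, plus strain where strains were pooled (strain and sex for sham times). P-values were adjusted by Benjamini-Hochberg over all genes tested, and a gene was called at an adjusted p below 0.05. DESeq2 1.42.0 with and without gene-length offsets, no filter, no covariates, single experiments and leave-one-out fits were alternatives. TPM served for levels only. Library totals ran from 14857985 to 57355676 estimated counts, which limits genes of a few counts. The fits were tested on simulated data. No 2 libraries held identical values, and all 200 mapped to a label.

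Members were named if called in C57BL/6J mice, in the first 12 by p over the 4 strains or the first 5 of a difference, if highest in their class, or if among 8 vascular basement membrane chains. Up to 4 genes of each pathway list, by p at 9 h in C57BL/6J, were named. Col1a1, Col1a2 and the remaining type IV chains at 9 h, and lower-ranked genes over the 4 strains, were named after their values were seen. The values of 1 member and 1 gene of the matrix regulators are not reported here.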

Additional observations from a re-analysis of the deposited data

Results flagged for a closer look

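Within the C57BL/6J sham groups, read gene by gene, 6 of 52 sets of values examined held a mouse far from the others, where chance flags about 1 in 20. The genes were measured in the same mice, so these sets are not independent. Col15a1 was at 2.71 TPM in replicate 3 at 24 h (next highest 1.46) and at 6.06 TPM in replicate 1 at 72 h (next highest 2.43). Replicate 1 at 72 h also had Col2a1 at 1.36 TPM (next highest 0.438). Col11a1 was at 4.65 TPM in replicate 6 at 24 h (next highest 2.65). Col24a1 was at 0.682 TPM in replicate 1 at 9 h (next highest 0.121) and at 3.60 TPM in replicate 5 at 24 h (next highest 1.11).

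The CHI effect over the 4 strains differed between 9 and 24 h, by edgeR's quasi-likelihood test, for 10 members. On the log2 scale it was higher at 9 h by 0.72 for Col4a1, 0.66 for Col4a2 and 1.00 for Col5a3. The differences were -0.42 for Lama4, -1.07 for Col13a1, -0.88 for Col4a6, -0.55 for Col4a5, -0.67 for Col1a2, -0.80 for Col2a1 and -0.54 for Lama1, with adjusted p-values from 1.3e-08 to 0.0431. Between 9 and 72 h 14 members differed. The CHI effect was higher at 9 h by 0.65 for Col4a1, 0.66 for Col4a2 and 1.10 for Col5a3. The differences were -1.28 for Col2a1, -0.83 for Col1a2, -0.59 for Col18a1, -0.55 for Col4a5, -0.90 for Col13a1 and -0.47 for Col15a1. They were -1.10 for Col8a2, -0.74 for Col4a6, -0.44 for Col9a2, -0.51 for Col9a3 and -0.28 for Lama4, with adjusted p-values from 9.05e-08 to 0.047. In C57BL/6J mice alone 4 and 5 members differed.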

How the results depend on the processing

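Col4a1, Col4a2 and Col5a3 stayed called at 9 h in C57BL/6J mice under all 15 alternatives, with log2 fold changes of 0.87 to 1.16, 0.84 to 1.05 and 1.81 to 2.61. The number of members called there was 10, and 6 and 3 in single experiments, 4 without mice over 100 TPM of Ttr and 6 to 11 when 1 sham mouse was left out. Col11a2 turned to -0.0141 with gene-length offsets. At 24 h in C57BL/6J mice DESeq2 called 1 member and the fit without a filter 4, against 0. Over the 4 strains at 9 h the 20 members became 6, 6 and 2 in single experiments and 12 without high-Ttr mice. In the smallest experiment Col1a2 turned to 0.11, Col26a1 to 0.0076 and Col9a3 to 0.0192, and Col8a1 turned to 0.0788 without high-Ttr mice. At 24 h the 0 members became 1 with DESeq2, 2 with gene-length offsets, 1 without sex and age and 1 without the 2 libraries against their sex label. At 72 h the 2 members became 0 in either experiment. At 9 h the 9 members of IL-1R1 eRestore mice became 0 without high-Ttr mice and 3 to 17 when 1 sham mouse was left out. The 0 members of IL-1R1 gKO mice became 2 with gene-length offsets and 1 with experiment in place of age. The 0 of IL-1R1 nRestore mice became 1, 1 and 5 with offsets, with experiment in place of age and without a filter, and 0 to 1 with 1 sham mouse left out. For the change of the CHI effect from 9 h, C57BL/6J mice alone gave 4 members against 10 at 24 h and 5 against 14 at 72 h, where gene-length offsets gave 9. For IL-1R1 eRestore against C57BL/6J at 9 h offsets gave 1 member. The cause was not tested, but single experiments hold fewer mice. Shares of all genes called in single experiments, or with mice left out, are not given here. No paired analysis was possible because the labels carry no replicate numbers shared between groups. Leaving out high-Ttr mice or the 2 libraries, and the smallest experiment, were chosen after seeing the data.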
